A study of Homo sapiens with 42 samples.

Results

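Heavy polysomes from MOLM-13 cells exposed to quizartinib were compared with the input RNA of the same cultures, once in stromal conditioned medium and once in plain medium. MOLM-13 is a human acute myeloid leukemia (AML) line that carries an internal tandem duplication in FLT3, a receptor tyrosine kinase, and quizartinib (AC220) inhibits that kinase. The members were chosen by their labels: the 12 quizartinib libraries of 42 in the series, which are 6 of 21 cultures. Of these, 3 cultures were grown in RPMI with quizartinib at 3 nM and 3 in hBMSC-CM, RPMI mixed with medium in which HS-5 cells, a human bone marrow stromal line, had grown, with quizartinib at 3 nM. All were treated for 12 h, and none of the 12 received everolimus, an inhibitor of the kinase mTOR that other cultures of the series received at 10 nM. Cycloheximide was added shortly before harvest to hold ribosomes on their messages, and sucrose gradients separated the polysomes. Each culture gave an input library and a library of RNA enriched in heavy polysomes. The measure for each gene was the log2 level in the polysome library minus the log2 level in the input library of the same culture, and the comparison set this difference in hBMSC-CM against RPMI. The vehicle pair of media and the pair treated with quizartinib and everolimus together, 12 libraries each, served as the nearest comparisons. The question was whether conditioned medium alters which messages are loaded with ribosomes while FLT3 is inhibited.

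A message carrying many ribosomes sediments deep in a sucrose gradient, so its share in heavy polysomes relative to input describes heavy loading with ribosomes. This share depends on how many ribosomes a message carries and is not translation activity itself. The medium difference in it moved with coding length, as given below. Messages for ribosomal proteins and several translation factors begin with a TOP motif, a cytosine followed by a run of pyrimidines, and their entry into polysomes is known to depend on mTOR through the LARP1 and 4E-BP proteins. Oxidative phosphorylation (OXPHOS) complexes are built largely from proteins encoded in the nucleus, and their translation has also been tied to mTOR.

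The starts of 12 messages are printed because the genes at the head of the ranking fall on both sides of the TOP definition at the annotated start. Each line gives 10 bases before the annotated start and the first 20 bases from it, on the gene's strand, 5′ to 3′, from RefSeq on GRCh38.p14. Capitals mark the tract, which is a C at the start and at least 4 further C or T. The first 4 lines are ribosomal proteins with a tract.
RPL39: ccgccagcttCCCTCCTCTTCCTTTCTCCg
RPS18: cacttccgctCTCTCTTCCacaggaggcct
RPL12: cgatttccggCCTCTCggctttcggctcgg
RPS6: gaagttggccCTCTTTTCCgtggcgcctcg
Next are the OXPHOS genes COX7C and UQCRH, elongation factor EEF2 and TPT1, a tumor protein gene of the classical TOP group, all with a tract.
COX7C: tcccatctttCTTTTCagtccttgcgcacc
UQCRH: cttacaagtcCTTCTTgatcctgaactggg
EEF2: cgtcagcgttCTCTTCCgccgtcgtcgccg
TPT1: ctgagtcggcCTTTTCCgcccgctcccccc
The remaining 4 have no tract at the listed base, including the ribosomal protein genes RPS7 and RPL10A, the complex I gene NDUFA1 and VMP1. In RPS7 and RPL10A a tract begins within 3 bases of the listed base.
RPS7: cgccctcctcctcgcgctgtttccgcctct
RPL10A: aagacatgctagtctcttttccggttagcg
NDUFA1: cggccgcggggcttgctgggaagagaggcg
VMP1: tgacgtgagcgggttccggttgtctggagc
These windows lie at chrX:119791611-119791640 (minus), chr6:33272065-33272094 (plus), chr9:127451387-127451416 (minus), chr9:19380217-19380246 (minus), chr5:86617931-86617960 (plus), chr1:46303688-46303717 (plus), chr19:3985444-3985473 (minus), chr13:45341164-45341193 (minus), chr2:3575250-3575279 (plus), chr6:35468391-35468420 (plus), chrX:119871822-119871851 (plus) and chr17:59707644-59707673 (plus), in the order printed. By the same definition, 5.93% of the 6376 tested genes with a single listed start had a tract. Where the listed base is not the start used in these cells, a tract can lie nearby and be missed.

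The 12 libraries held 19439370 to 36421777 counts and 12939 genes passed the filter on low counts, a mean of at least 1 count and 1 CPM. CPM is a gene's count scaled to a common library total, here adjusted by the trimmed mean of M values (TMM). Of the 16 AML line markers 14 passed the filter, whereas CD34 had no count in any of the 12 libraries and KIT was below the filter. Of 24 stromal markers 4 passed and 9 had no count in any of the 12. The summed level of the 24 spanned 231 to 346 CPM in the hBMSC-CM inputs and 209 to 330 CPM in the RPMI inputs. Most of it came from S100A6, with a median of 234 CPM over the 12 libraries. The medians of the other markers that passed were 14.2 CPM for COL1A1, 11.5 for ACTA2 and 4.67 for TAGLN. Of 12 markers of other blood lineages 2 passed, NKG7 (median 126 CPM over the 12 libraries) and CD79A (2.00 CPM). The summed level of the 12 markers, most of it NKG7, was 121 to 194 CPM in the hBMSC-CM inputs against 33.5 to 60.9 CPM in RPMI. In polysomes it was 160 to 459 CPM against 51.3 to 140 CPM. The part of these marker levels in the results was not tested. Mitochondrial transcripts, which are translated inside the organelle, made up 3.78% to 9.27% of the input counts and 0.144% to 0.713% of the polysome counts. In bulk RNA, a difference in the number of cells of a kind and a difference in RNA per cell cannot be told apart. Each library is scaled to its own total, so the values give the make-up of the polysome RNA and not its amount. The study calls its replicates biological and the labels only number them, so the p-values measure the spread between these samples.

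Across all genes, the polysome level relative to input did not differ between the media for any gene at an adjusted p under 0.05 (edgeR quasi-likelihood test, 0 of 12939 genes, 0%). Without adjustment, 287 genes were higher in hBMSC-CM (2.22%) and 163 lower (1.26%) at a p under 0.05, 450 in all. About 647 would be reached at that threshold with no difference if the samples were independent. Replicate numbers paired them, as described below, and this fit left the pairing out, so the 450 cannot be judged against 647. limma voom called 0 genes and DESeq2 called 9, of which 8 were higher in hBMSC-CM and 1 lower. They were the ribosomal protein genes RPS7, RPL10A, RPL15, RPL39 and RPL27, the pseudogenes RPS7P1, RPL15P2 and RPS15AP1, and VMP1, the lower gene. The lowest adjusted p was 0.123, for RPS7. The genes at the head of the ranking were not a mixed set: of the 20 higher genes with the smallest p, 9 were ribosomal protein genes and 8 were ribosomal protein pseudogenes, and of the first 100, 32 and 35. Ribosomal protein pseudogenes share near-identical sequence with their parent genes, so their values may hold reads of the parents.

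Replicate numbers paired the samples, and fits that used the pairing gave more calls. With a block for the number within each fraction, 16 genes rose (0.124%) and 1 fell (0.00773%), among them 10 ribosomal protein genes and no OXPHOS gene. With a block per culture and number, a fit added after seeing the data, 70 rose (0.541%) and 2 fell (0.0155%). Of the 79 ribosomal protein genes, 39 were among those that rose. The 2 genes that fell in this fit were VMP1 and RTF1. With a block for the replicate number over all libraries, RPS7 and its pseudogene RPS7P1 were called, and with a block per culture alone 0 genes were called, as in the fit without a block. Each fit with a block, except that per culture alone, therefore placed at least 1 ribosomal protein gene past the threshold. DESeq2 without a block did so too, and edgeR and limma voom without a block did not.

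The ribosomal protein messages stood higher in heavy polysomes in hBMSC-CM as a group. In RPMI with quizartinib, the 79 genes made up 18.5%, 16.5% and 19.2% of the input counts and 7.53%, 5.95% and 7.69% of the polysome counts in replicates 1 to 3. In hBMSC-CM with quizartinib they made up 16.0%, 13.9% and 17.1% of the input counts and 8.83%, 8.43% and 12.8% of the polysome counts. Every hBMSC-CM polysome library held a larger share than every RPMI polysome library, although the input shares were not larger. Without drug the polysome shares were 13.1%, 14.2% and 18.1% in RPMI and 10.9%, 12.1% and 16.4% in hBMSC-CM, so under quizartinib the hBMSC-CM libraries lay between the RPMI quizartinib and the RPMI vehicle libraries. The mean polysome share was 7.06% ± 0.962 (SD, n = 3) in RPMI with quizartinib, 10.0% ± 2.42 (SD, n = 3) in hBMSC-CM with quizartinib and 15.2% ± 2.65 (SD, n = 3) in RPMI without drug.

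**Figure D1:**
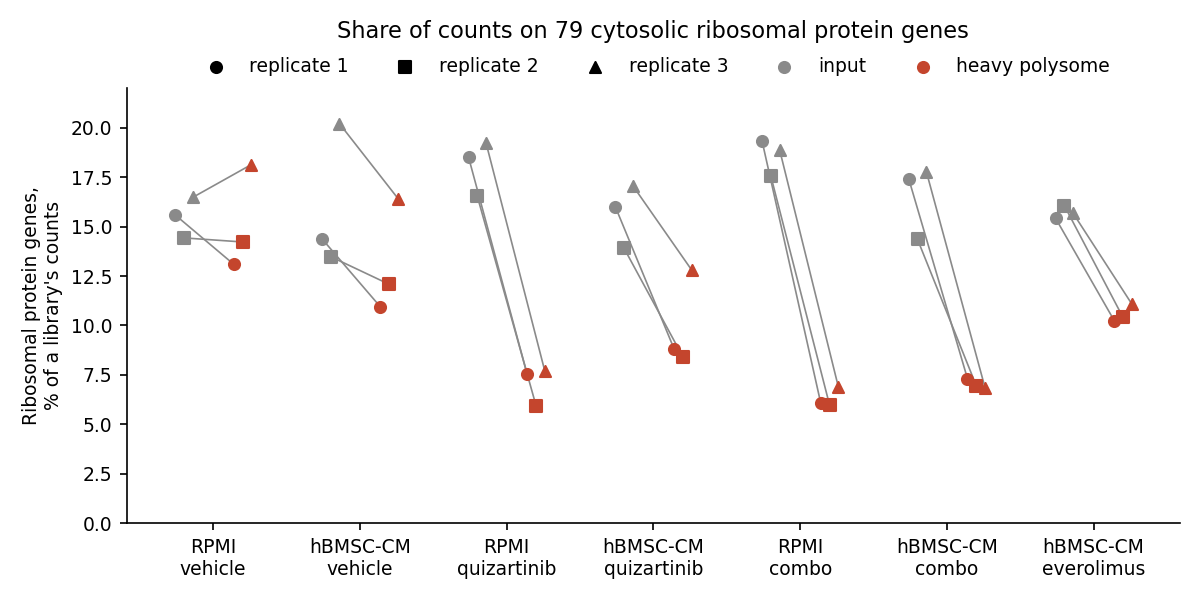
Share of counts from the 79 ribosomal protein genes, in percent of each library's counts, for input and heavy polysome libraries by medium and drug; each point is 1 culture and lines join the 2 libraries of a culture. Under quizartinib the polysome share was 5.95% to 7.69% in RPMI and 8.43% to 12.8% in hBMSC-CM.

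Gene by gene, all 79 ribosomal protein genes passed the filter on low counts and all 79 had a positive log2 difference between hBMSC-CM and RPMI, with a median of 0.87 (1.82-fold) against −0.09 over all genes tested. The medians of the pairs with the same replicate number were 0.57, 0.94 and 1.06. The per-culture values of 64 of the 79 genes did not overlap between the media and lay higher in hBMSC-CM, against 3.37% of all genes, and none lay lower, against 3.86%. At an unadjusted p under 0.05 there were 53 of the 79, against 2.22% of all genes higher. In all 3 pairs the value was higher in hBMSC-CM for 74 of the 79, against 15.2% of all genes. The 47 large-subunit genes had a median of 0.87 and the 32 small-subunit genes one of 0.85. In the edgeR fit without a block none of the 79 passed the adjusted threshold.

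RPS7, a small-subunit protein of the 40S particle (gene at chr2:3575260-3580920, GENCODE v44), led the ranking. Its polysome minus input value was −1.75, −1.71 and −1.51 in RPMI and −0.55, −0.40 and 0.08 in hBMSC-CM. The groups did not overlap, and the third hBMSC-CM culture was the only 1 of the 6 with a polysome level at or above its input. The log2 difference was 1.40 ± 0.27 (SE; edgeR unadjusted p = 9.52e-06, adjusted p = 0.123), or 2.64-fold, and with a block per culture and number it was 1.37 ± 0.18 (SE; edgeR adjusted p = 4.36e-04). The larger part of the difference was in the polysome libraries, where RPS7 stood at 418, 355 and 439 CPM in RPMI polysomes and at 759, 706 and 1175 CPM in hBMSC-CM polysomes, while its input level was 1161 to 1410 CPM in RPMI and 935 to 1111 CPM in hBMSC-CM. A two-sided exact permutation test of 3 against 3 cultures cannot go below 0.1, so the non-overlapping genes all share that p.

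RPL39, a short large-subunit protein of the exit tunnel with the longest tract printed above, had low values in both media. Its value was −2.25, −3.04 and −2.69 in RPMI and −1.34, −1.22 and −1.55 in hBMSC-CM, a log2 difference of 1.24 ± 0.28 (SE; edgeR unadjusted p = 1.06e-04, adjusted p = 0.401). It stayed below input in all 6 cultures. RPL10A, also of the large subunit, was below input in every RPMI culture (−0.68, −0.47 and −0.29) and above it in every hBMSC-CM culture (0.14, 0.48 and 0.93), a difference of 1.02 ± 0.24 (SE). RPS18 had values of −1.26, −1.51 and −1.56 in RPMI and −0.61, −0.34 and −0.15 in hBMSC-CM. The 2 media were separated for RPL27 as well, with −1.38, −1.61 and −1.33 against −0.61, −0.17 and −0.01, and for RPL15, with −0.73, −0.60 and −0.43 against −0.04, 0.19 and 0.44.

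RPL32 had the second largest difference among the ribosomal protein genes with 1.37 ± 0.41 (SE), from −1.56, −2.04 and −1.27 in RPMI to −0.76, −0.29 and 0.21 in hBMSC-CM. The difference was 1.32 ± 0.44 (SE) for RPL12 and 1.19 ± 0.39 (SE) for RPS15A. At the other end of the group RPL22, whose product also binds RNA outside the ribosome, differed by 0.27 ± 0.34 (SE), RPL3 by 0.36 ± 0.23 (SE) and RPSA by 0.59 ± 0.32 (SE). These 3 differences were smaller than 2 standard errors. RPS6, the ribosomal substrate of the S6 kinases, stood between the ends: −1.38, −1.49 and −1.50 in RPMI against −1.10, −1.03 and −0.50 in hBMSC-CM, without overlap, and a difference of 0.63 ± 0.31 (SE; edgeR unadjusted p = 0.0515). The 4 pseudogenes among the genes named by p, RPS7P1 (1.42), RPL15P2 (1.35), RPS15AP1 (1.62) and RPL15P3 (1.03), had log2 differences near or above those of their parents and are uncertain for the reason given.

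**Figure D2:**
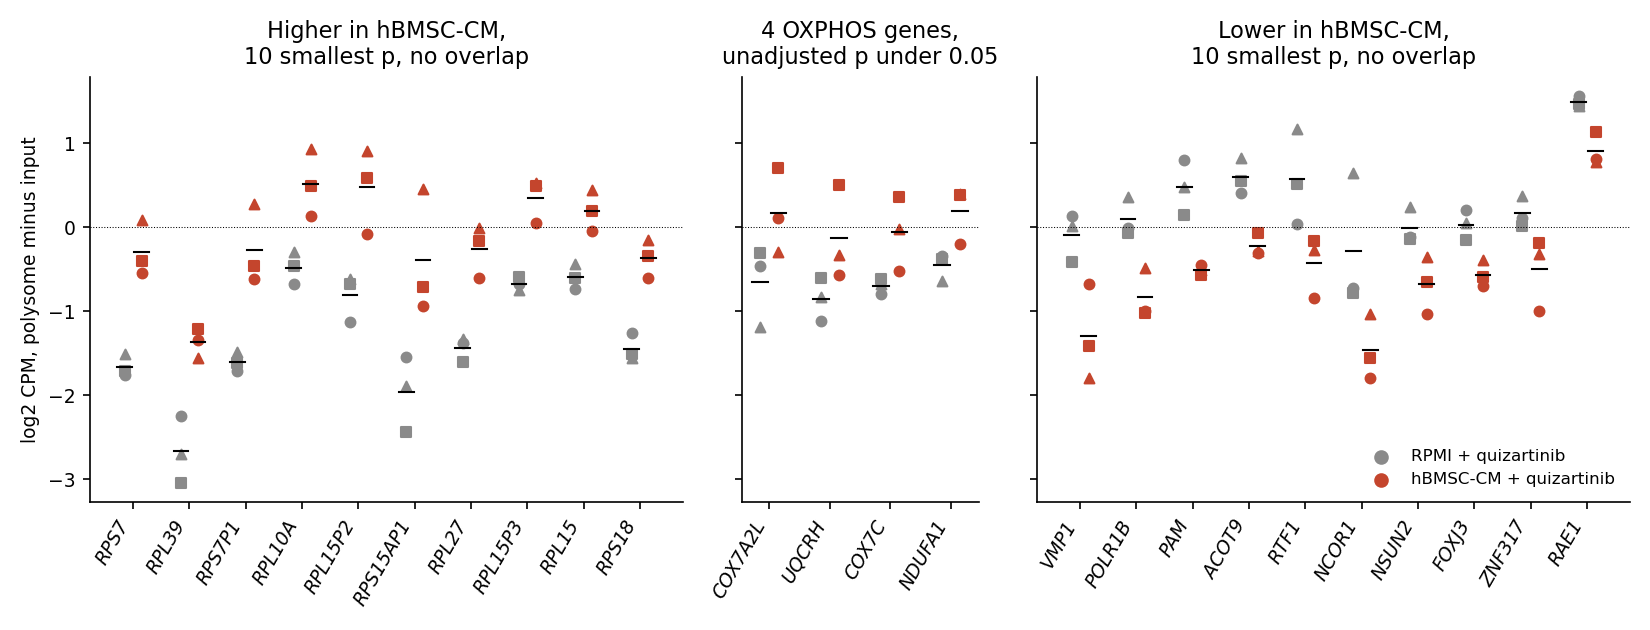
Polysome minus input (log2) in each quizartinib culture for the 10 genes higher and the 10 genes lower in hBMSC-CM with the smallest p among those without overlap, and for 4 OXPHOS genes; each point is 1 culture and colors mark the medium, shapes the replicate number and bars the mean. None of these genes passed the adjusted threshold in the edgeR fit without a block.

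The relative difference was split between the fractions, with the larger median in polysomes. In input, the ribosomal protein genes had a median log2 difference of −0.26 between hBMSC-CM and RPMI under quizartinib and none of the 79 passed the test, where 6.11% of all genes rose and 2.05% fell. Of the 79, 6 were higher in input and the others lower. In polysomes the median was 0.67, 36 of the 79 rose and none fell, where 5.94% of all genes rose and 5.09% fell. RPS7 rose by 1.12 (edgeR adjusted p = 9.34e-05), RPL39 by 0.96 (adjusted p = 0.00114), RPL27 by 0.96 (adjusted p = 0.00198) and RPL10A by 0.76 (adjusted p = 0.00263). RPS6 (0.40), RPSA (0.31) and RPL3 (0.18) did not pass in polysomes, and for RPSA and RPL3 the input differences, −0.28 and −0.18, were about as large as those in polysomes. With a replicate block within each fraction, the calls over all genes became 1469 higher and 806 lower in input and 1604 higher and 1770 lower in polysomes, from 791 and 265 and from 769 and 658. With the replicate number alone as a block the polysome calls were 1138 higher and 1090 lower. A fit of only the groups compared went the other way in polysomes, with 171 higher and 34 lower. In input that fit called 780 higher and 316 lower.

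Quizartinib had the opposite association with the same messages in RPMI. Against vehicle, 62 of the 79 ribosomal protein genes fell in polysomes relative to input and none rose, where 1.28% of all genes fell and 0.278% rose, and the median was −1.57. RPL27 fell by 2.14 (edgeR adjusted p = 9.55e-05), RPS7 by 2.04 (adjusted p = 9.55e-05) and RPL39 by 1.83 (adjusted p = 2.79e-04). Over all genes, 36 rose and 165 fell in the fit without a block, and 195 rose and 296 fell with the replicate number alone as a block. With a replicate block within each fraction, 1004 rose and 509 fell, and with a block per culture and number 874 rose and 499 fell, so with either of these most calls over all genes then pointed up. This comparison and the medium comparison share the 6 RPMI quizartinib libraries, so a departure of those libraries would appear in both with opposite sign. The comparison of quizartinib with vehicle within hBMSC-CM uses none of them. There 0 genes of 12939 passed (0%, edgeR, limma voom 0 and DESeq2 0). At an unadjusted edgeR p under 0.05, 229 of the 12939 genes were higher and 59 lower, 288 in all. The ribosomal protein median was −0.39, and 7 of the 79 were among those lower at that threshold. The median over all genes was 0.15 for the drug in RPMI and 0.10 for the drug in hBMSC-CM.

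The median ribosomal protein gene in RPMI stood at 0.02, 0.37 and 0.47 relative to input without drug and at −1.25, −1.41 and −1.43 with quizartinib. In hBMSC-CM it stood at −0.14, 0.19 and −0.20 without drug and at −0.63, −0.43 and −0.22 with quizartinib. The hBMSC-CM quizartinib cultures thus lay above all 3 RPMI quizartinib cultures and below all 6 vehicle cultures. The means were −1.36 ± 0.10 (SD, n = 3) and −0.43 ± 0.21 (SD, n = 3) under quizartinib, against 0.29 ± 0.23 (SD, n = 3) and −0.05 ± 0.21 (SD, n = 3) without drug, for RPMI and hBMSC-CM.

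**Figure D3:**
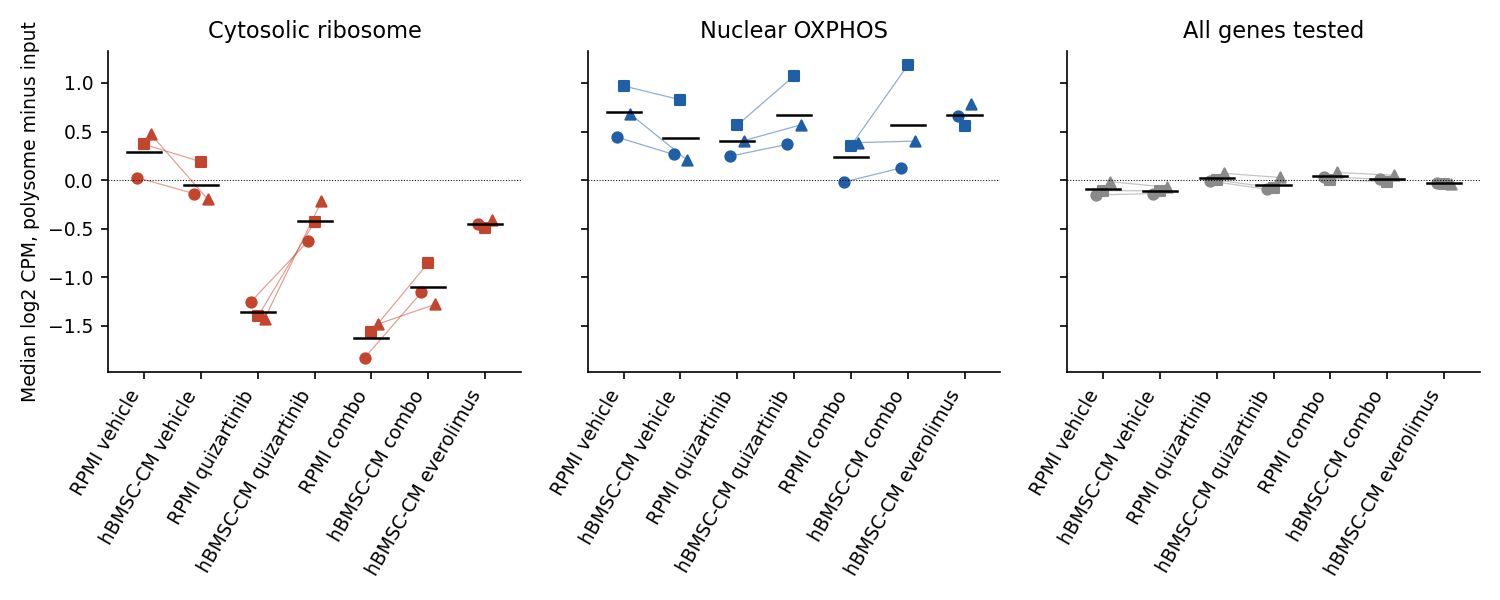
Median polysome minus input (log2) of the ribosomal protein genes, the nuclear OXPHOS genes and all genes tested in each culture, by drug and medium; each point is 1 culture, shapes mark the replicate number, bars the mean, and thin lines join cultures with the same number in the 2 media. Ribosomal protein medians under quizartinib ran from −1.43 to −1.25 in RPMI and from −0.63 to −0.22 in hBMSC-CM.

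Without drug the medium comparison ran the other way. The ribosomal protein median was −0.35 in hBMSC-CM against RPMI and 12 of the 79 genes lay lower without overlap, against 3.22% of all genes. No gene passed the test without drug (0%, edgeR, 211 at an unadjusted p under 0.05, limma voom 0, DESeq2 1). Of the 79 genes, 58 (73.4%) were higher in all 3 pairs under quizartinib and lower in all 3 pairs without drug, against 5.96% of all genes. The difference between the 2 medium comparisons was tested gene by gene, and 0 genes passed (0%, edgeR, 624 at an unadjusted p under 0.05, limma voom 0, DESeq2 13), with the lowest adjusted p, 0.525, for RPL39. With a block per culture and number this test called 49 genes. The median difference of the ribosomal protein genes was 1.27, and 61 of the 79 had an unadjusted p under 0.05.

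When everolimus was added to quizartinib, the polysome share of ribosomal protein genes was 6.08%, 5.99% and 6.90% in RPMI and 7.32%, 6.96% and 6.85% in hBMSC-CM. Relative to input the median gene stood at −1.83, −1.56 and −1.48 in RPMI and at −1.16, −0.85 and −1.28 in hBMSC-CM, a mean of −1.63 ± 0.18 (SD, n = 3) against −1.10 ± 0.22 (SD, n = 3). The median log2 difference between the media was 0.51, and 30 of the 79 genes lay higher in hBMSC-CM without overlap, against 2.74% of all genes. No gene passed the adjusted threshold (0%, edgeR, 198 at an unadjusted p under 0.05, limma voom 0, DESeq2 2). Whether the medium difference under both drugs was smaller than under quizartinib alone was not tested. The hBMSC-CM cultures with everolimus alone, for which no RPMI partner was analysed here, had medians of −0.45, −0.50 and −0.41.

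Nuclear OXPHOS genes were also higher in hBMSC-CM, but by less and without a gene past the threshold in any of the fits with or without a block. Of 79 listed genes 76 were tested, and their median log2 difference was 0.33 (1.26-fold) with pair medians of 0.15, 0.56 and 0.29. The difference was positive for 62 of the 76, and 50 (65.8%) were higher in all 3 pairs, against 15.2% of all genes. Per-culture values lay higher without overlap for 20 of the 76, against 3.37% of all genes, and lower for 1, against 3.86%. At an unadjusted p under 0.05 there were 4, all higher, against 2.22% of all genes. The median relative to input stood at 0.25, 0.57 and 0.41 in RPMI and at 0.37, 1.07 and 0.57 in hBMSC-CM, so the groups overlapped and replicate 2 was highest in both media. Without hBMSC-CM quizartinib replicate 2 the median difference over the 76 genes was 0.15.

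The 4 OXPHOS genes at an unadjusted p under 0.05 were COX7A2L, UQCRH, COX7C and NDUFA1. COX7A2L, a cytochrome c oxidase subunit relative involved in supercomplex assembly, had values of −0.46, −0.31 and −1.19 in RPMI and 0.10, 0.70 and −0.30 in hBMSC-CM, a difference of 0.83 ± 0.30 (SE; edgeR unadjusted p = 0.00814). UQCRH, the hinge protein of complex III, had −1.12, −0.61 and −0.83 against −0.57, 0.50 and −0.33, a difference of 0.77 ± 0.31 (SE; unadjusted p = 0.0171 by edgeR). Neither gene overlapped between the media, COX7A2L only narrowly so, and the second hBMSC-CM culture was highest for both. COX7C, a complex IV subunit, had −0.79, −0.62 and −0.68 against −0.52, 0.36 and −0.02. NDUFA1, a complex I subunit, had −0.35, −0.38 and −0.64 against −0.20, 0.38 and 0.39. The adjusted p of each of the 4 rounded to 1.

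Differences between the complexes were not tested. Complex IV with cytochrome c had a median of 0.50 with 13 of 13 genes positive, and 6 lay higher without overlap, against 3.37% of all genes. Complex III had a median of 0.40 over 9 genes, ATP synthase 0.38 over 16 and complex I 0.28 over 34. Without hBMSC-CM quizartinib replicate 2 these became 0.31, 0.17, 0.19 and 0.11 in the order given. The 4 genes of complex II had a median of 0.03. Within the complexes the genes named by rule ran from NDUFB3 (0.85 ± 0.53, SE), COX6B1 (0.66 ± 0.51, SE) and ATP5ME (0.66 ± 0.42, SE) at the top to NDUFS1 (−0.60 ± 0.34, SE), UQCRC2 (−0.36 ± 0.27, SE) and SDHA (−0.69 ± 0.44, SE) at the bottom. Without hBMSC-CM quizartinib replicate 2, NDUFB3 became 0.19 and COX6B1 became 0.079. Without RPMI quizartinib replicate 2 they became 1.39 and 1.07. UQCRC2 became −0.096 and NDUFS1 −0.37 without RPMI quizartinib replicate 3, and SDHA became −0.32 without RPMI quizartinib replicate 1. NDUFS1 carries iron-sulfur clusters of complex I, SDHA is the flavoprotein of complex II and UQCRC2 is a core subunit of complex III. The catalytic ATP synthase subunits ATP5F1A (−0.07) and ATP5F1B (−0.15) stood close to the median of all genes.

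In the polysome libraries alone 3 of the 76 OXPHOS genes rose, a share below the 5.94% of all genes. They were cytochrome c itself (CYCS, 1.32, edgeR adjusted p = 0.0068), ATP5MC1, the c-ring subunit of ATP synthase (0.96, adjusted p = 0.0456), and NDUFA1 (0.59, adjusted p = 0.0347). CYCS and ATP5MC1 were also higher in input, by 0.82 and 0.68, and neither passed there. Relative to input CYCS differed by 0.50 ± 0.46 (SE) and ATP5MC1 by 0.28 ± 0.45 (SE), and the latter became −0.08 without hBMSC-CM quizartinib replicate 2. No OXPHOS gene passed in input, where the median was 0.01. Under quizartinib in RPMI 1 of the 76 genes fell, a share close to the 1.28% of all genes. It was COX7C, which fell by 1.12 (edgeR adjusted p = 0.0383), and the median of the group was −0.45.

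OXPHOS medians without drug were 0.44, 0.97 and 0.68 in RPMI and 0.26, 0.83 and 0.20 in hBMSC-CM, and the median log2 difference was −0.31. Of the 76 genes, 31 (40.8%) were higher in all 3 pairs under quizartinib and lower in all 3 without drug, against 5.96% of all genes. Under both drugs the medians were −0.02, 0.35 and 0.39 in RPMI and 0.12, 1.18 and 0.40 in hBMSC-CM, and the median log2 difference was 0.34, beside 0.33 under quizartinib alone. The other mitochondrial lists were mixed. Protein import genes had a median of 0.29, which became −0.07 without hBMSC-CM quizartinib replicate 2. Mitochondrial ribosome genes had 0.18, which became 0.016 without the same replicate, TCA cycle genes −0.17 and the 13 mitochondrially encoded genes −0.32.

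**Figure D4:**
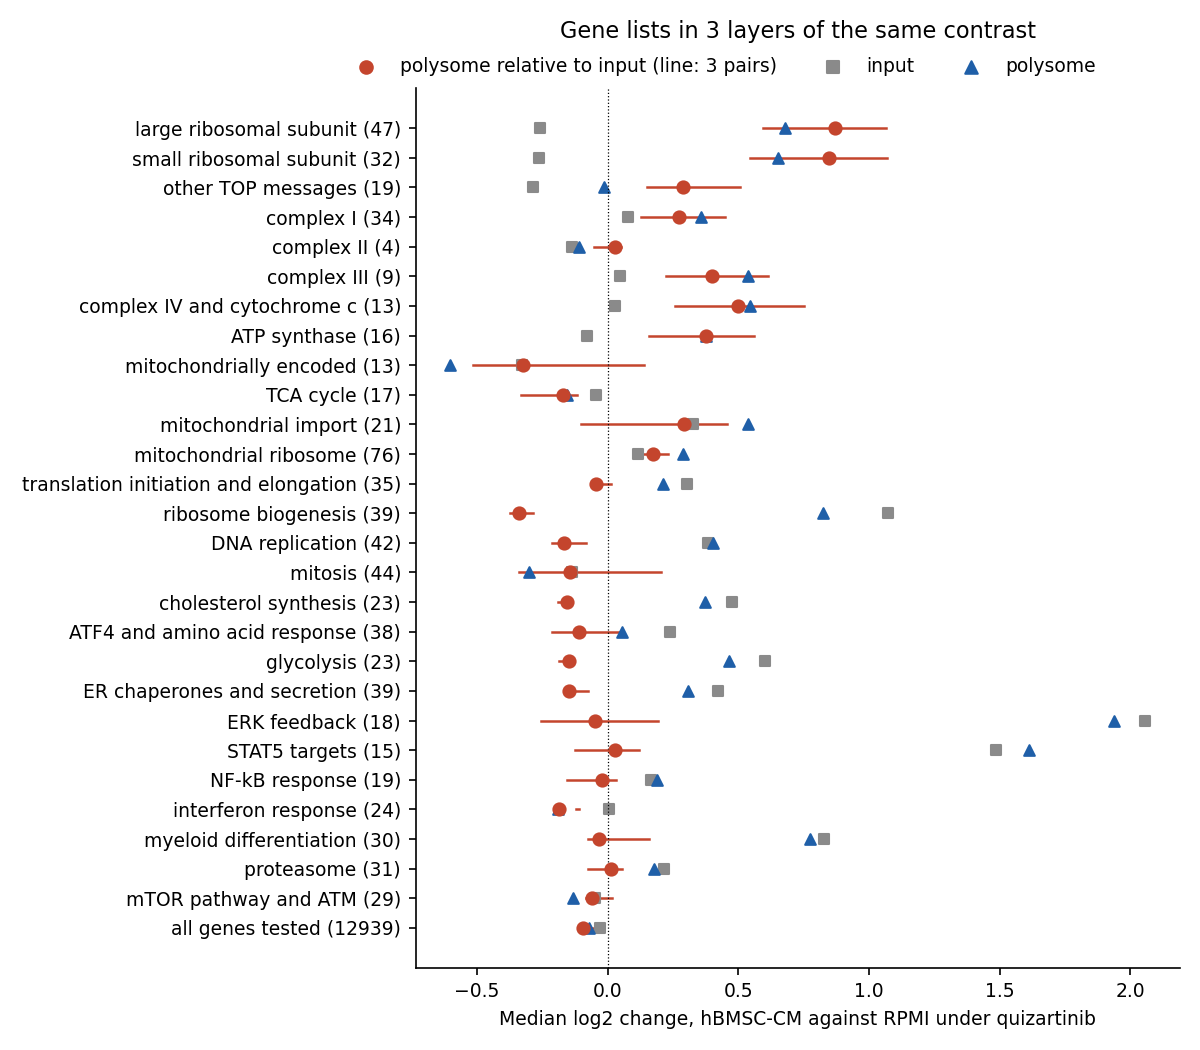
Median log2 difference between hBMSC-CM and RPMI under quizartinib for each gene list in input, in heavy polysomes and in polysomes relative to input; points are medians of the fitted differences and the line on the relative value spans the medians of the 3 pairs with the same number. The 79 ribosomal protein genes were at −0.26, 0.67 and 0.87 in the 3 layers, and the 39 ribosome biogenesis genes at 1.07, 0.82 and −0.34.

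Coding length moved with the medium difference, and both groups consist of short messages. The median coding length was 453 bases for ribosomal protein genes and 417 for OXPHOS genes, against 1387.5 over the 10808 genes with a value (83.5% of those tested). The median log2 difference was 0.40 for the 238 genes of up to 300 coding bases, 0.21 from 301 to 600, −0.00 from 601 to 1200, −0.18 from 1201 to 2400 and −0.29 above 2400. With ribosomal protein and OXPHOS genes left out, the first 2 of these bins stood at 0.37 and 0.19. In the bin from 301 to 600 bases the 48 ribosomal protein genes had a median of 0.94 and the 36 OXPHOS genes one of 0.34. In the bin up to 300 bases the 20 OXPHOS genes had 0.55 and the 9 ribosomal protein genes 0.85. The 9 OXPHOS genes from 1201 to 2400 bases had −0.21, close to the −0.18 of the other genes of that length. The same order with the opposite sign was seen for the medium without drug (−0.40 in the shortest bin, 0.16 in the longest) and for quizartinib in RPMI (−0.52 and 0.55). The latter shares the RPMI quizartinib libraries. For the medium under both drugs the order had the same sign as under quizartinib alone (0.30 in the shortest bin, −0.23 in the longest). The part of length in the results was not tested.

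**Figure D5:**
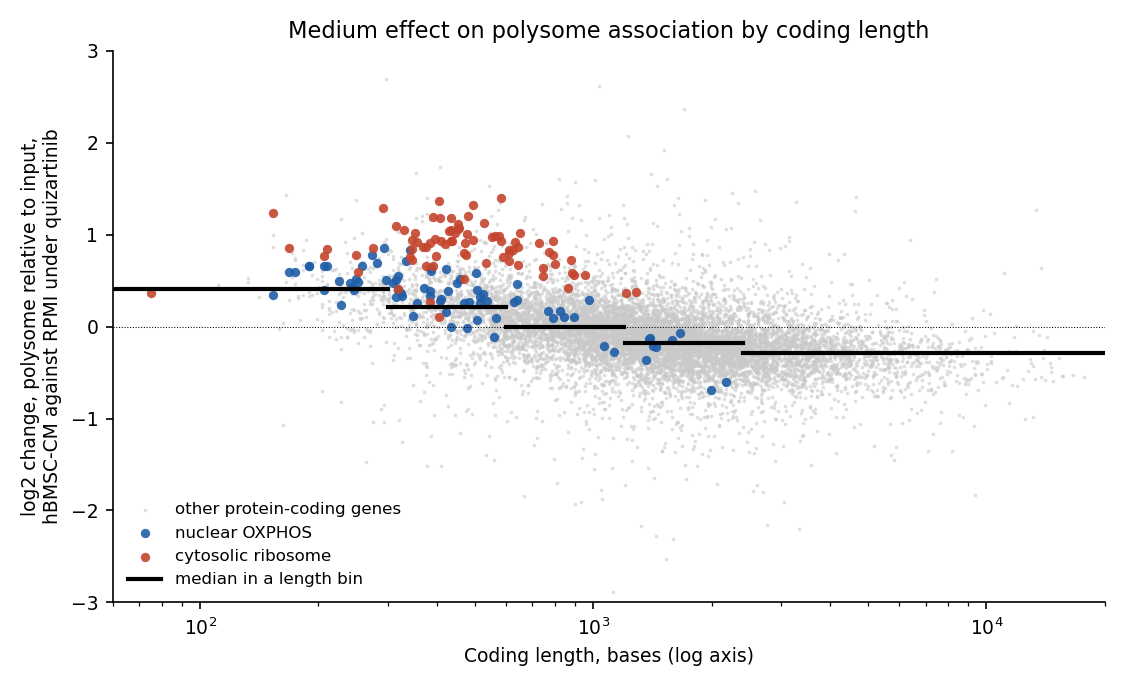
Log2 difference between hBMSC-CM and RPMI under quizartinib, polysome relative to input, against coding length in bases (log axis) for the 10808 genes with a coding length; ribosomal protein and OXPHOS genes are colored and black bars mark the median of each length bin. 16 points lie outside the axes and are not drawn, and the binned medians ran from 0.40 to −0.29.

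A tract at the annotated start was found in 41 of 53 ribosomal protein genes with a single listed start (77.4%). Their median difference was 0.91, and that of the 12 without a tract at that base, which include RPS7 and RPL10A, was 0.89. Within 3 bases of the listed start, 45 of the 53 had a tract (84.9%), RPS7 and RPL10A among them. Over all 6376 genes that share was 14.6%. The medians of the ribosomal protein genes with and without a tract within 3 bases were 0.91 and 0.89. Among OXPHOS genes 6 of 53 had a tract (11.3%), with a median of 0.47 against 0.32 for those without. Over all 6376 genes the medians were 0.04 with a tract and −0.12 without, and outside the ribosomal, OXPHOS and other TOP lists they were −0.04 (323 genes) and −0.13. These are letter matches at or near one listed base and describe the messages only.

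The other classical TOP messages, 19 translation factors and related genes, had a median of 0.29 with 18 positive. This median became −0.02 without hBMSC-CM quizartinib replicate 3 and 0.54 without RPMI quizartinib replicate 3. TPT1 had a difference of 0.94 ± 0.61 (SE), from −2.38, −3.73 and −2.01 in RPMI to −1.58, −2.89 and −0.91 in hBMSC-CM, and the groups overlapped. EEF2, which moves the ribosome along the message, differed by 0.35 ± 0.46 (SE). EIF2A, an initiation factor outside the eIF2 complex, had −3.05, −3.44 and −1.57 against −1.29, −2.24 and −0.86, a difference of 1.07 ± 0.38 (SE; edgeR unadjusted p = 0.00827), which became 1.86 without RPMI quizartinib replicate 3 and 0.67 without RPMI quizartinib replicate 2. A separate list of initiation and elongation factors, which does not hold EIF2A, had a median of −0.04 over 35 genes, and EIF3K on it had 0.57 ± 0.27 (SE).

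Among genes lower in polysomes relative to input in hBMSC-CM, VMP1, a membrane protein of autophagosome formation, came first. Its value was 0.13, −0.42 and 0.01 in RPMI and −0.68, −1.41 and −1.80 in hBMSC-CM, a difference of −1.23 ± 0.25 (SE; edgeR unadjusted p = 2.46e-05, adjusted p = 0.159), and it fell by 1.21 with a block per culture and number (edgeR adjusted p = 0.00704). In input VMP1 rose from 69.4, 81.7 and 74.6 CPM in RPMI to 137, 167 and 227 CPM in hBMSC-CM (log2 1.23, edgeR adjusted p = 7.64e-06), and in polysomes it stood at 76.0, 61.2 and 75.3 CPM against 85.8, 62.6 and 65.0 CPM. Without drug its difference was −0.88, and under both drugs it was −1.26. Exons of a gene on the opposite strand overlap VMP1, so its counts may include reads of that gene. Overlaps with other transcripts on the same strand were not looked for.

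POLR1B, the second largest subunit of RNA polymerase I, showed the same layout. Its value was −0.01, −0.07 and 0.36 in RPMI and −0.99, −1.02 and −0.48 in hBMSC-CM, a difference of −0.91 ± 0.29 (SE). It rose in input by 1.04 (edgeR adjusted p = 6.63e-04) and differed by 0.13 in polysomes. ACOT9, a mitochondrial acyl-CoA thioesterase, rose in input by 0.70 (edgeR adjusted p = 0.011) and differed by −0.80 relative to input. NSUN2, an RNA methyltransferase, rose in input by 0.58 (edgeR adjusted p = 0.0261) and differed by −0.65 relative to input. PAM, an enzyme of peptide amidation, fell in polysomes by 0.82 (edgeR adjusted p = 0.0166), and FOXJ3, a forkhead transcription factor, fell there by 0.54 (edgeR adjusted p = 0.0229). RTF1 (−0.94), NCOR1 (−1.17), ZNF317 (−0.64) and RAE1 (−0.59) passed in neither fraction. None of these 10 genes passed the test of the relative difference in the edgeR fit without a block.

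Ribosome biogenesis genes, which make and assemble ribosomes, stood apart from the ribosomal proteins themselves. Of 39 tested, 26 rose in input, against 6.11% of all genes, and 20 rose in polysomes, against 5.94%. The medians were 1.07 and 0.82, none fell, and none passed relative to input, where the median was −0.34 and the pairs were −0.30, −0.29 and −0.37. This median became −0.12 without RPMI quizartinib replicate 3. The genes with the smallest p in input and in polysomes, PIM1 and SOCS3, changed in both fractions. PIM1, a STAT5-induced kinase, stood at 6.25, 5.39 and 6.35 CPM in RPMI inputs and at 257, 186 and 252 CPM in hBMSC-CM inputs, a rise of 5.27 in input (edgeR adjusted p = 2.87e-16) and of 4.73 in polysomes (adjusted p = 1.75e-15). SOCS3, a feedback inhibitor of JAK-STAT signaling, rose by 4.97 and 5.35, and MYC, a transcription factor of growth genes, by 3.14 and 2.88. Relative to input these 3 differed by −0.54 ± 0.32 (SE), 0.38 ± 0.33 (SE) and −0.26 ± 0.42 (SE). FLT3, the drug's target, fell by 2.21 in input and by 2.40 in polysomes and differed by −0.20 ± 0.36 (SE) between the fractions.

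The lists of these pathways are read against the 6.11% of all genes that rose in input and the 5.94% that rose in polysomes. STAT5 targets rose in input for 12 of 15 genes and ERK feedback genes for 11 of 18, with 11 and 11 in polysomes, and the medians relative to input were 0.03 and −0.05. Myeloid differentiation genes rose for 14 of 30 in input and 13 in polysomes, with a relative median of −0.03. DNA replication genes rose for 12 of 42 in input and 8 in polysomes, glycolysis genes for 8 of 23 and 7, cholesterol synthesis genes for 6 of 23 and 4, and ER chaperone and secretion genes for 10 of 39 and 9, with relative medians of −0.17, −0.15, −0.16 and −0.15. These relative medians lay between −0.17 and 0.03, beside −0.09 for all genes, and no member passed relative to input. The remaining relative medians were −0.11 for ATF4 and amino acid response genes, −0.15 for mitosis, −0.02 for the NF-kB response, −0.19 for the interferon response, 0.01 for the proteasome and −0.06 for the mTOR pathway with ATM.

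Single genes of these lists departed further from 0. HSPA5, the main ER chaperone, rose in input by 1.74 (edgeR adjusted p = 4.12e-05) and in polysomes by 0.88 (adjusted p = 0.0353), and its relative difference was −0.86 ± 0.39 (SE; edgeR unadjusted p = 0.0347). SSR4, a subunit of the translocon-associated complex and a short message of the same list, rose in polysomes by 0.88 (edgeR adjusted p = 0.00536) and had a relative difference of 0.82 ± 0.30 (SE). SESN1, a p53-induced inhibitor of mTORC1, fell in input by 0.83 (edgeR adjusted p = 0.00465) and in polysomes by 1.42 (adjusted p = 4.8e-06), and it differed by −0.59 ± 0.28 (SE) relative to input. MRPL36, a mitochondrial ribosome protein, rose in polysomes by 1.39 (edgeR adjusted p = 2.76e-04) with a relative difference of 0.74 ± 0.36 (SE), and the mitochondrial chaperone HSPA9 had −0.60 ± 0.30 (SE). MTOR (−0.93 ± 0.50, SE), ATM (−0.37 ± 0.49, SE) and MCL1, an anti-apoptotic protein (−0.33 ± 0.23, SE), did not pass in input, in polysomes or relative to input. Of 25 genes chosen by name 24 were tested, none passed relative to input, and they ranged from −0.93 for MTOR to 1.37 for RPL32.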

How the data were processed

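The authors deposited raw read counts per gene for poly(A)-selected, paired-end libraries, with replicates kept apart. Per the study's methods adapters were trimmed and reads aligned to hg38, and the submitters' processing notes name STAR 2.6.0a and limma. Whether strand was used in counting is not given in the sources used here. The deposited counts of 58884 gene rows (25133 without a count in any library) were summed over 150 shared names to 57353 names. Genes with a mean of at least 1 count and 1 CPM over all 42 libraries were kept (12939 genes, 99.8% of counts). edgeR 4.0.16 in R 4.3.3 fitted 14 group means to all 42 libraries with TMM factors (robust quasi-likelihood, Benjamini-Hochberg adjustment over all genes tested, threshold 0.05, common biological coefficient of variation 0.279). Per-culture values are log2 CPM with a prior count of 2. Totals were 19439370 to 38786394 counts, and counts of 42 same-group library pairs differed by more than sampling noise. The scripts were tested on simulated data.

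The replicate numbers, taken from the labels, pair the samples. Deviations of polysome minus input from the group mean correlated across the media at 0.398, 0.600 and 0.591 for numbers 1 to 3, and the highest value for unlike numbers was −0.0477. Blocked fits are given beside the comparisons whose counts they move. The 30 gene lists, the 25 genes chosen by name and the comparisons were chosen with earlier results of these data known. Genes named beyond these are the 10 higher and 10 lower with the smallest unadjusted p, a mean of at least 10 CPM and no overlap between media, since no gene passed, and the 2 highest and 2 lowest of lists at that level. Alternatives were limma voom (3.58.1), DESeq2 (1.42.0), RLE factors, library size only, no filter, a mean of 10 CPM, only the groups compared, blocks, rows kept apart by identifier, and leaving out each culture. The block per culture and number and the drug comparison in hBMSC-CM were added after seeing the data. Coordinates of genes are from GENCODE v44 (58472 of 58884 identifiers matched) and starts from RefSeq.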

Additional observations from a re-analysis of the deposited data

Results flagged for a closer look

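Within each same-numbered pair, a list was given the median of its genes' differences between the media. By this value, 9 of the 10 ribosomal, mitochondrial and TOP lists examined moved in opposite directions under quizartinib and without drug in every pair. Their differences (the log2 difference under quizartinib minus that without drug, polysome relative to input) were 1.27 for ribosomal protein genes, 0.67 for nuclear OXPHOS, 0.61 for complex I, 0.46 for complex III, 0.95 for complex IV with cytochrome c, 0.77 for ATP synthase, 0.30 for the mitochondrial ribosome, −0.52 for ribosome biogenesis and −0.34 for the TCA cycle. These lists overlap, since nuclear OXPHOS holds the genes of complexes I, III and IV and of ATP synthase. The list medians of single cultures did not always follow. In replicate 1, complex III stood at −0.46 in hBMSC-CM and 0.04 in RPMI under quizartinib, and at 0.11 and −0.32 without drug. ATP synthase in replicate 1 without drug stood at 0.51 in hBMSC-CM and 0.44 in RPMI. Complex II, mitochondrial import and mitochondrially encoded genes were not among the 10 lists. The difference between the lists' medians was not tested. Of all genes tested, 5.96% were higher under quizartinib and lower without drug in every pair, and 5.85% the reverse.

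Single genes met the same condition, looked for only among the genes named in the text. For genes named because their quizartinib values did not overlap between the media, that rule fixed the quizartinib part of the condition in advance. Genes named as the highest or lowest of a list were chosen by the same quizartinib difference. For them that part of the condition, and of the value printed, was not independent of the choice. The ribosomal protein genes were RPL39 (1.88), RPL32 (1.74), RPS15A (1.74), RPL12 (1.63), RPS7 (1.51), RPL27 (1.45), RPS18 (1.44), RPL10A (1.16), RPS27 (1.02), RPS6 (0.76) and RPL3 (0.48), with the pseudogene RPL15P3 (1.35). The OXPHOS genes higher under quizartinib were ATP5ME (1.64), NDUFB3 (1.43), NDUFA1 (1.24), COX6B1 (1.19), COX7C (1.19), UQCRH (1.12) and COX7A2L (1.12), and those lower were NDUFS1 (−0.91), UQCRC2 (−0.64), ATP5F1B (−0.37) and ATP5F1A (−0.35). Of the other named genes, SSR4 (1.07) and MRPL36 (1.00) were higher, and HSPA5 (−1.24), NSUN2 (−1.06), HSPA9 (−0.95), ZNF317 (−0.90), RAE1 (−0.89), FOXJ3 (−0.79), MCL1 (−0.58), MYC (−0.55) and FLT3 (−0.45) were lower. In the edgeR test of the difference itself 0 genes passed without a block, with 624 at an unadjusted p under 0.05, and DESeq2 called 13 and limma voom 0.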

How the results depend on the processing

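The ribosomal protein median stayed between 0.76 (library size only) and 0.97, and that of OXPHOS between 0.15 and 0.46, in every alternative run. With library size only the median of all genes moved from −0.09 to −0.21, and the OXPHOS median was 0.22. Counts of genes past the threshold depended on the fit, and the cause was not tested. For the medium under quizartinib, 0 genes became 9 with DESeq2, 1 without a filter on low counts, 2 with the replicate block, 17 with the replicate block within each fraction and 72 with the replicate block per culture and number, and 0 to 1 without single cultures (VMP1, without hBMSC-CM replicate 1). In input, 1056 became 2275 with the replicate block within each fraction and 703 to 932 without single cultures, lowest without hBMSC-CM replicate 3. In polysomes, 1427 became 205 with only the groups compared, 2228 with the replicate block, 3374 with the replicate block within each fraction and 949 to 1427 without single cultures, lowest without hBMSC-CM replicate 2. For the medium without drug, 0 became 1 with DESeq2 and 1 without a filter. For the difference between the 2 medium comparisons, 0 became 13 with DESeq2, 2 with the replicate block within each fraction, 49 with the replicate block per culture and number and 0 to 1 without single cultures. For quizartinib in RPMI, 201 became 389 with DESeq2, 491 with the replicate block, 1513 with the replicate block within each fraction, 1373 with the replicate block per culture and number and 94 to 148 without single cultures, at or below 133 without RPMI quizartinib replicate 1 or 3 or any vehicle replicate. Of its calls 36 were higher; with library size only 78 of 169 were, with RLE factors 16 of 252, with only the groups compared 2 of 221, with the replicate block 195 of 491, with the replicate block within each fraction 1004 of 1513 and with the replicate block per culture and number 874 of 1373, so in the last pair the majority turned. For the medium under both drugs, 0 became 2 with DESeq2, 6 without a filter, 1 with the replicate block within each fraction and 0 to 2 without single cultures. Without single cultures the relative difference ran from −0.0050 to 0.53 for RPL22 and from −0.44 to 0.069 for UQCRC1 (reversed without hBMSC-CM replicate 3), from −0.079 to 0.46 for ATP5MC1 (without hBMSC-CM replicate 2), and from −0.49 to 0.036 for MYC, −0.46 to 0.16 for FLT3 and −0.76 to 0.22 for ATM (without RPMI replicate 3), and it reversed for ATP5F1A without a filter (0.014) or with only the groups compared (0.031). With every block run, the counts for the medium without drug and for quizartinib in hBMSC-CM stayed at 0. The lowest total, 19439370 counts, was that of the third hBMSC-CM quizartinib input, and values of genes near the filter of 1 CPM are the least precise.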
